A study of Mus musculus with 30 samples.

Results

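The untreated lungs of adult and juvenile mice were compared, with 4 arrays of 16-week-old animals set against 4 arrays of 21-day-old animals. These 8 samples of the 30 in the series were chosen by their labels, which name both groups as controls without treatment that breathed on their own. All animals were C57BL/6 mice, a common inbred strain, and the RNA came from whole lung and was hybridised to Affymetrix 430 2.0 arrays. The other 22 arrays hold animals of the same ages that inhaled a lipopolysaccharide (LPS) aerosol, a bacterial outer membrane component, for 30 min and breathed on their own for 2 h, that were mechanically ventilated for 2 h at 15 mL/kg per breath on 30% oxygen, or that received both in turn. They enter the fit that estimates the spread between arrays, and they are used below to ask whether an age difference was also measured in other animals. Each group had 4 arrays, apart from 3 in the ventilated juveniles and 3 in the juveniles given both. The labels give no sex, litter, hour of collection or hybridisation batch. They also do not say whether an array holds 1 animal or a pool.

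The mouse lung is still immature at birth. Most alveoli form in the following weeks by secondary septation, in which myofibroblasts lay down elastin at the tips of new septa, and later the capillary bed is remodelled and the septa thin. In the same period the lung gains cells by division, the airway epithelium acquires its adult detoxifying enzymes, and lymphoid and myeloid cells settle in the tissue. Juveniles at weaning age stand near the end of this period, whereas the adults are past it.

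Adult arrays resembled each other more than they resembled juvenile arrays, while correlations between juvenile arrays overlapped those across ages. Pearson correlations over the 13089 genes tested, on log2 values, were 0.988 to 0.996 between adult arrays, 0.975 to 0.992 between juvenile arrays and 0.959 to 0.981 across ages. The first principal component held 56.8% of the variance and separated the ages. Surfactant protein C (Sftpc), which defines lung tissue, was abundant on all 8 arrays, at 18194 to 20618 in adults and 19723 to 21138 in juveniles. Several arrays stood apart within their group. Adult replicates 3 and 4 held more transcripts of neutrophils and monocytes than adult replicates 1 and 2, juvenile replicate 1 held the most transcripts of dividing cells, and juvenile replicate 4 the most glucocorticoid-inducible transcripts and the fewest of dividing cells among juveniles. The intensity of Xist, an RNA that coats the silenced X of females, was 589 on juvenile replicate 3 and at most 22.3 on the other 7 arrays. On that array the Y-linked gene Eif2s3y was at 9.69, against 159.6 to 204 on the adult arrays. Results that rest on these arrays are given with and without them.

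Gene values below are intensities on the deposited linear scale. Differences are log2 differences, adult minus juvenile, ± the standard error (SE) of a limma fit, on log2(intensity + 32). The added constant pulls differences of dim genes towards 0. A gene is called higher or lower when its limma p, adjusted by the method of Benjamini and Hochberg over all genes tested, was under 0.05.

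Adult and juvenile lungs differed at 3301 of 13089 genes, which is 25.2% of those tested. Adults were higher at 1982 genes (15.1%) and lower at 1319 genes (10.1%), and the median difference over all genes was 0.01. Most differences were small. At least 2-fold differences were found at 97 genes that were higher (0.741%) and 78 that were lower (0.596%). The adult arrays lay wholly above the juvenile arrays at 14.1% of genes and wholly below them at 8.01%. Without adult replicates 3 and 4 the number of genes called fell to 1676. These shares are the background against which the gene groups below are read. In bulk tissue, fewer cells of a type and less of an RNA per cell cannot be told apart, and this holds for every gene group described here.

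**Figure D1:**
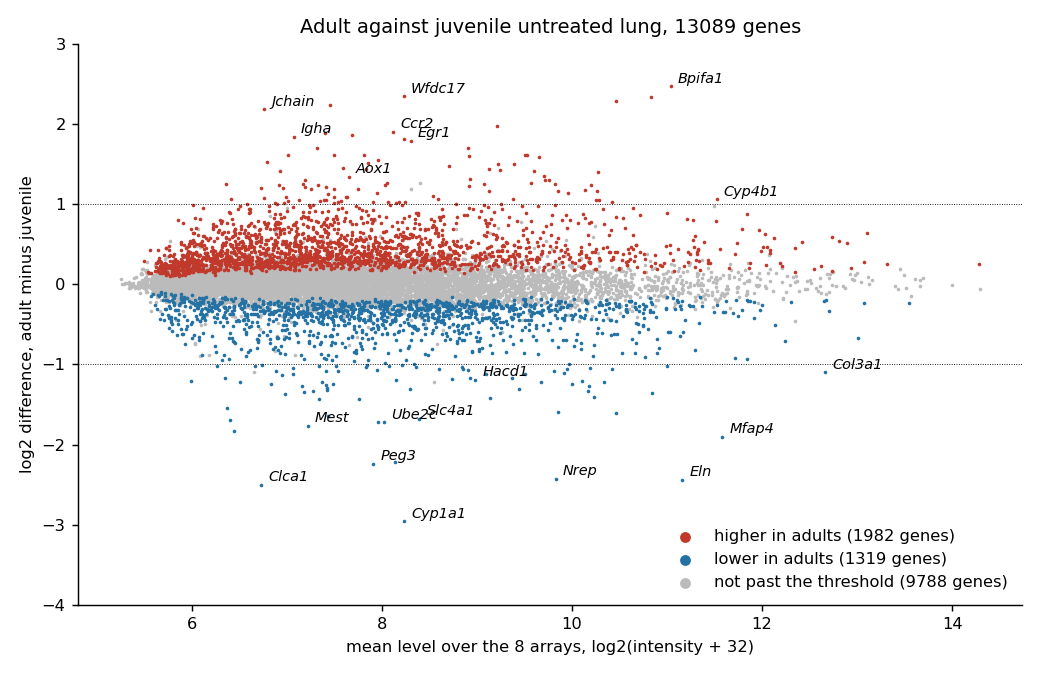
Each point is a gene, plotted by its mean level over the 8 untreated arrays (x axis, log2 of intensity plus 32) and its log2 difference, adult minus juvenile (y axis). Red and blue points passed an adjusted p of 0.05, and dotted lines mark 2-fold. Cyp1a1, Clca1, Eln and Nrep lie lowest, and Bpifa1 and Wfdc17 highest.

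Elastic fibre genes were mostly lower in adult lungs. Elastin itself (Eln), the rubber-like core protein of the fibre, had intensities of 964, 798, 1024 and 1033 in adults, against 5322, 5823, 3884 and 6517 in juveniles. Every adult array lay below every juvenile array, and the log2 difference was -2.44 ± 0.18 (limma adjusted p = 2.6e-10). The microfibril-associated glycoprotein Mfap4 had 1821, 2195, 1289.8 and 1128 in adults and 5869.9, 5940.3, 5067 and 6795 in juveniles (-1.90 ± 0.25). Lower levels were also found for Lox (-1.22 ± 0.14), the enzyme that cross-links elastin and collagen, for its relative Loxl1 (-0.43 ± 0.09), for the microfibril proteins Mfap2 (-1.17 ± 0.14) and Mfap5 (-0.81 ± 0.16), for the latent TGF-beta binding protein Ltbp2 (-1.05 ± 0.16) and for Fbln5 (-0.70 ± 0.12), a fibulin needed for elastic fibre assembly. Of the 17 elastic fibre genes tested, 11 were lower, 3 were higher and 3 did not pass, with a median difference of -0.43. The 3 higher genes also encode fibre-associated proteins: Efemp1 (fibulin 3, 0.87 ± 0.11), Fbln1 (0.75 ± 0.11) and Ltbp4 (0.47 ± 0.13). Efemp1 had 1606, 1582, 1320.0 and 1374 in adults and 911, 732, 836 and 680.4 in juveniles with no overlap. The groups of Ltbp4 overlapped.

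Collagens showed the same direction, with smaller differences by the 1 probe set used for each gene. Of the 29 collagen chains tested, 16 were lower, 12 did not pass and 1 was higher (median -0.28), and 15 of the chains had adult arrays wholly below the juvenile ones. Fibrillar chains led the group. Col3a1 had 5180.4, 4222, 4252 and 4005 in adults, against 9487, 9843, 9098 and 9397 in juveniles (-1.10 ± 0.12). Col5a2, a minor chain that sets fibril diameter, differed by -1.25 ± 0.10 with an adjusted p of 9.9e-10, and Col1a1 and Col1a2, the 2 chains of type I collagen, by -1.06 ± 0.18 and -0.92 ± 0.13. The basement membrane chains Col4a1 (-0.94 ± 0.12) and Col4a5 (-1.08 ± 0.13) and the microfibrillar chain Col6a2 (-1.05 ± 0.11) were lower too. The size depended on the probe set for some chains. A second probe set differed by -2.255 for Col1a2, -2.108 for Col5a2 and -1.81 for Col3a1. Second probe sets of Col1a1 (-0.982), Col4a1 (-1.0), Col4a5 (-1.152) and Col6a2 (-1.005) were close to those used. The one higher chain was Col8a2 (0.35 ± 0.06), a dim gene with 37.3 ± 2.19 in adults and 22.5 ± 4.29 in juveniles (mean ± SD, n = 4 each).

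Genes that process or bind collagen were less uniform. Of 18 genes for collagen modification and folding, 6 were lower, 2 higher and 10 did not pass. Sparc, a matricellular glycoprotein that binds collagen, had 6928, 6364, 6325 and 6347 in adults and 10303, 10230.4, 9994 and 10950.4 in juveniles (-0.67 ± 0.07). The collagen chaperone Serpinh1 was lower (-0.60 ± 0.13), while P4ha2, a subunit of prolyl 4-hydroxylase, was higher (0.51 ± 0.13). The Serpinh1 call was lost when a gene's probe sets were averaged (difference -0.27, adjusted p = 0.13), and the P4ha2 call without adult replicates 3 and 4 (0.37, adjusted p = 0.11). Of the 35 other matrix and basement membrane genes, 15 were lower and 4 higher (median -0.34). Lower genes included asporin (Aspn, -1.43 ± 0.19), tenascin C (Tnc, -1.22 ± 0.21), periostin (Postn, -1.02 ± 0.15), nidogen (Nid1, -0.99 ± 0.10), which links laminin to collagen IV, and fibronectin (Fn1, -0.86 ± 0.12). Decorin (Dcn), a small proteoglycan that coats collagen fibrils, went the other way, with 1720.2, 1498, 1403 and 1431 in adults and 867, 814, 929 and 855 in juveniles (0.78 ± 0.11).

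Several genes with the lowest differences or the smallest p of the whole comparison encode parts of the secretory and matrix machinery. Adamts12, a secreted metalloprotease, had 17.3, 13.6, 13 and 16.6 in adults, which is below the array medians of 21.56 to 22.49, and 123, 122, 98.8 and 139 in juveniles (-1.69 ± 0.11). Kdelr3, a receptor that returns chaperones to the endoplasmic reticulum, differed by -1.72 ± 0.12, the follistatin-like glycoprotein Fstl1 by -1.60 ± 0.12, and the cyclophilin Ppic by -1.33 ± 0.12. All adult arrays lay below all juvenile arrays for each of these genes. The smallest p of any gene belonged to Hacd1, a dehydratase of very long chain fatty acid synthesis, with 277, 298, 289 and 349 in adults and 758, 689, 754 and 722 in juveniles (-1.19 ± 0.07, adjusted p = 2.0e-12).

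Matrix-degrading enzymes and their inhibitors split. The gelatinase Mmp2, made by fibroblasts, was lower in adults (361, 379, 320.2 and 305, against 696, 774, 786 and 860.3 in juveniles, -1.12 ± 0.12). Stromelysin (Mmp3, 0.82 ± 0.19), the inhibitor Timp1 (0.76 ± 0.15) and the neutrophil gelatinase Mmp9 (1.31 ± 0.31) were higher. Mmp9 had 113, 94.2, 292 and 435 on the adult arrays, and the high values belonged to replicates 3 and 4. Without those replicates its difference was 0.55 (adjusted p = 0.25) and that of Mmp3 was 0.67 (adjusted p = 0.057). Of 15 such genes tested, 5 were higher, 2 lower and 8 did not pass.

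**Figure D2:**
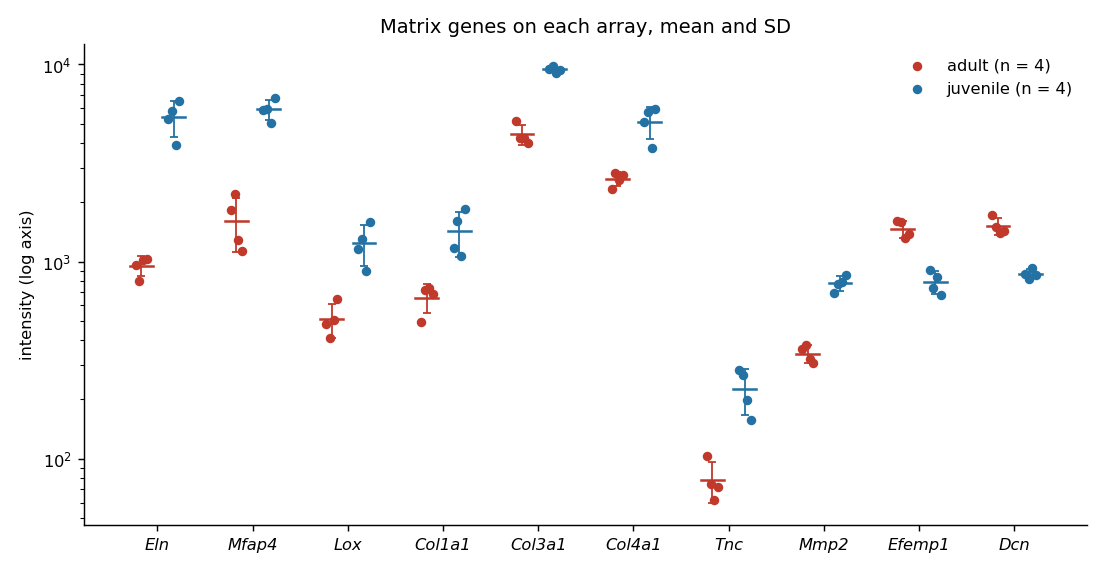
Intensity (log axis) of 10 matrix genes on each array, adults left and juveniles right within a gene, with the mean (line) and SD (bar) of 4 arrays. Eln, Mfap4, Lox, 3 collagen chains, Tnc and Mmp2 are lower in adults with no overlap, and Efemp1 and Dcn are higher with no overlap.

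Transcripts of dividing cells were lower in adults, with a wide spread among juveniles. Of 39 genes of mitosis tested, 37 were lower, 0 higher and 2 did not pass in the fit of all arrays (median difference -0.74). That fit took 1 spread per gene for all groups, while the median SD of these genes was 0.123 in adults and 0.663 in juveniles. Its SEs can therefore understate the spread of the untreated arrays. With only the untreated arrays in the fit, 9 of 39 were lower. Ube2c, the ubiquitin-conjugating enzyme of the anaphase-promoting complex, had 119, 103, 114 and 108 in adults and 873, 389, 351 and 310.1 in juveniles (-1.72 ± 0.23, adjusted p = 4.0e-06). The proliferation marker Mki67 had 116, 76.8, 76.4 and 48.1 in adults and 574, 279, 189 and 98.9 in juveniles (-1.32 ± 0.30). For Mki67 the lowest juvenile array, replicate 4, lay within the adult range, and juvenile replicate 1 lay far above the rest. Nusap1, a spindle protein (-1.35 ± 0.22), kept its groups apart, while Cdk1, the kinase that drives entry into mitosis (-1.33 ± 0.31), cyclin A2 (Ccna2, -1.24 ± 0.30), cyclin B2 (Ccnb2, -1.01 ± 0.27) and survivin (Birc5, -1.22 ± 0.28) overlapped between the ages. The adult arrays lay wholly below the juvenile arrays at 7 of the 39 genes, against 8.01% of all genes.

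The mean level of the mitosis genes, in log2 units, was 6.28, 6.10, 6.07 and 6.01 on the adult arrays and 7.82, 6.91, 6.68 and 6.20 on the juvenile arrays. Juvenile replicate 4 thus fell inside the adult range. The count of lower mitosis genes depended on which arrays entered the fit. It was 9 of 39 when only the 8 untreated arrays entered the fit and 10 of 39 without adult replicates 3 and 4. Their list means, 6.07 and 6.01, lay near another adult mean of 6.10. Whether the drop came from these replicates or from fewer arrays was not tested. The count was 25 of 39 without juvenile replicate 1 alone and 37 of 39 without juvenile replicate 4 alone. It was 36 of 39 without juvenile replicates 1 and 4. Leaving out both extremes narrows the juvenile spread, so that count cannot show reliance on replicate 1. Ccnb2 (adjusted p = 0.074) and Ccna2 (adjusted p = 0.057) lost their calls in the fit of untreated arrays alone, as did the spindle assembly factor Tpx2 (difference -0.56 ± 0.13 in the fit of all arrays, adjusted p = 0.0602 in that of untreated ones). Without adult replicates 3 and 4 the calls of Mki67 (adjusted p = 0.0503), Cdk1 (0.0516), Ccnb2 (0.0894), Ccna2 (0.0501) and the replication gene Rrm2 (0.0503) were lost. Ube2c and Nusap1 passed in each of these fits. Of 32 DNA replication genes, 12 were lower and 20 did not pass (median -0.22), among them the ribonucleotide reductase subunit Rrm2 (-1.27 ± 0.30) and the polymerase clamp Pcna (-0.63 ± 0.11), whose groups overlapped. Among cell cycle entry genes, cyclin D2 (Ccnd2, -0.51 ± 0.10) and Cdk6 (-0.69 ± 0.12) were lower with no overlap. The inhibitor Cdkn1a did not pass (difference -0.60 ± 0.26).

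Promoters of mitotic genes are known to carry the cell cycle genes homology region, CHR, with the letters TTTGAA, downstream of CCAAT boxes that bind NF-Y. The RefSeq windows from 250 bases before to 50 bases after the start site (build GRCm38.p6) were searched for both words on both strands, and 35 of the 39 mitosis genes matched an entry. TTTGAA was present in 26 of the 35 (74.3%), against 20.2% of the 27025 genes with a window and 17.9% of all 32851 windows. CCAAT was present in 27 of 35 (77.1%), against 41.1% of all genes and 37.4% of all windows. Among DNA replication genes 27 of 32 matched an entry. TTTGGCGC, an E2F site that overlaps neither of the other words, was in 6 of the 27, against 0.585% of all genes, and in 0 of the 35 mitosis genes. The windows of 3 genes are shown because their genes had a large difference or mark mitotic entry, with TTTGAA and CCAAT, or their reverse complements, in capitals.
Ube2c, chr2:164769679-164769978, plus strand: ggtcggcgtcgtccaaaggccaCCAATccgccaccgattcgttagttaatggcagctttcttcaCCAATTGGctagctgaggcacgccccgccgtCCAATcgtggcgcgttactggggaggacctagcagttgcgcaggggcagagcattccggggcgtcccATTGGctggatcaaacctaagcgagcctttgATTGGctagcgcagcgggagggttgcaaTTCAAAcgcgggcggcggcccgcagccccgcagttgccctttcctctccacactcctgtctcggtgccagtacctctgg
Cdk1, chr10:69352863-69353162, minus strand: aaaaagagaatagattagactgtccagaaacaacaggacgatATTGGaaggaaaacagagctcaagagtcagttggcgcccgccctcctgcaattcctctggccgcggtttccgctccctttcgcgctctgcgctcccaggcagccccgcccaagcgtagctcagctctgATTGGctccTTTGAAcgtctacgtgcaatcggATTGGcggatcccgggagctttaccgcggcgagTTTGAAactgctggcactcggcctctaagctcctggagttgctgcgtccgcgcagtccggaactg
Ccnb2, chr9:70421505-70421804, minus strand: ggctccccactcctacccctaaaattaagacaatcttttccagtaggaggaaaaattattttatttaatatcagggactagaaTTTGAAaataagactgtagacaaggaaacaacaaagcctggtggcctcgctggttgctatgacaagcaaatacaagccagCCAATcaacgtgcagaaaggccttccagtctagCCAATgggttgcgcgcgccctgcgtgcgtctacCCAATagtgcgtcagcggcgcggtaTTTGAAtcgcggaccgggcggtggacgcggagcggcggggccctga
Each holds a TTTGAA match near the start site, whose first base lies at -29 in Ube2c, at -15 in Cdk1 and at 5 in Ccnb2, and CCAAT matches upstream of it, 6 in Ube2c, 3 in Cdk1 and 3 in Ccnb2. A match is a string of letters in a window and was not tested as a binding site.

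Several imprinted genes, which are expressed from 1 parental copy and many of which act in fetal growth, were lower in adult lungs. Peg3, a paternally expressed imprinted zinc finger gene, had 87.3, 73.3, 87.3 and 68.1 in adults and 475, 491, 468 and 530.5 in juveniles (-2.24 ± 0.14, adjusted p = 3.0e-11). The imprinted gene Mest had 61.4, 40.8, 46.3 and 47.4 in adults and 377, 245, 226 and 163 in juveniles (-1.77 ± 0.14). Grb10 (-1.06 ± 0.13), an adaptor that restrains insulin and IGF receptors, the noncoding RNA Meg3 (-0.82 ± 0.11) and Ndn (-0.70 ± 0.11), a growth suppressor of neurons, were lower too. The 9 kept probe sets of Meg3 ranged from -0.819 to -0.032. The one used had the largest difference and is of a class that may bind related transcripts. In all, 8 of 18 imprinted genes tested were lower, 1 was higher and 9 did not pass (median -0.22). Igf2, the imprinted fetal growth factor, did not pass (91.6 ± 8.32 in adults and 100.1 ± 13 in juveniles, mean ± SD, n = 4 each). Of 9 oncofetal RNA-binding and HMG genes tested, 0 were called (median -0.03). The higher gene, Igf2r (0.22 ± 0.08), which clears IGF2, lost its call when any one of adult replicates 1 and 2 or juvenile replicates 1, 2 and 3 was left out (adjusted p 0.057 to 0.16) and under several other settings.

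Within the insulin-like growth factor axis the ligand Igf1 and some binding proteins differed in opposite directions. Igf1, the growth factor that acts on the IGF1 receptor, had 223, 249, 285 and 244 in adults and 861, 457, 666 and 524 in juveniles (-1.19 ± 0.23). Of the binding proteins, which hold IGFs outside cells, Igfbp6 (1.25 ± 0.16), Igfbp3 (0.86 ± 0.20) and Igfbp2 (0.85 ± 0.17) were higher. Igfbp6 had 1342, 1336, 1364 and 1431 in adults and 423, 576, 520.4 and 749 in juveniles. No array of one age reached the other for these 4 genes. Of the 15 genes of the axis tested, 5 were higher, 2 lower and 8 did not pass (median 0.0).

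A group of cytoskeletal and adhesion genes best known from growing neurons also fell. Of 25 tested, 16 were lower, 1 was higher and 8 did not pass (median -0.53), and in 14 the adult arrays lay wholly below the juvenile ones. Nrep, also called P311 and expressed in regenerating neurons and in developing lung, had 419, 517, 306 and 251 in adults and 2553, 2105, 2154 and 1595 in juveniles (-2.42 ± 0.25). Midkine (Mdk), a heparin-binding growth factor of embryonic tissue, had 66.9, 65.6, 63.1 and 66.3 in adults and 338, 289, 286 and 196 in juveniles (-1.65 ± 0.16). Marcksl1, an actin-binding protein kinase C substrate (-1.07 ± 0.16), N-cadherin (Cdh2, -1.13 ± 0.18) and stathmin (Stmn1, -0.68 ± 0.13), which destabilises microtubules, were lower too. The membrane protein Itm2a (-1.31 ± 0.12) and Mettl21e (-1.83 ± 0.19), a methyltransferase of muscle, were outside these lists. They were among the genes with the lowest differences or the smallest p. Mettl21e had 12.5, 18, 14.9 and 11.9 in adults and 119, 162, 97.9 and 161 in juveniles.

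Genes of ciliated airway cells were higher in adults almost without exception. Of 30 tested, 29 were higher and 1 did not pass, with a median of 0.49, and 26 had adult arrays wholly above the juvenile ones. Ccdc153 had 481, 563, 509 and 549.6 in adults and 175, 233, 275 and 268 in juveniles (1.06 ± 0.13). Dynlrb2, a dynein light chain, had 681, 859.9, 699 and 746 in adults and 346, 365, 372 and 384 in juveniles (0.96 ± 0.12). The adenylate kinase Ak7 of motile cilia (0.79 ± 0.10), Iqca, an IQ motif gene outside the list (0.94 ± 0.09) and Foxj1 (0.58 ± 0.14), the transcription factor that commits cells to motile cilia, were higher with no overlap. The mean level of the list was 7.24, 7.32, 7.20 and 7.22 on the adult arrays and 6.68, 6.73, 6.79 and 6.77 on the juvenile arrays, in log2 units. Sox2, the transcription factor of the airway lineage, was also higher (181, 173, 139.6 and 169 in adults, 75.6, 63.6, 103 and 57.1 in juveniles, 0.90 ± 0.11).

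RFX factors, which drive cilia genes, bind the X box, a pair of short arms. GTTGCC is a common form of one arm and TAGCAAC of the other, and the words do not overlap each other. Of the 27 ciliated-cell genes with a RefSeq window, 15 held GTTGCC on either strand (55.6%), against 14.1% of all genes and 12.5% of all windows. TAGCAAC was in 9 of the 27 (33.3%), against 4.28% of all genes and 3.66% of all windows. The windows of Dynlrb2, which holds both words, and of Ccdc153, which had the smallest p of the list, are shown with these words in capitals.
Dynlrb2, chr8:116504765-116505064, plus strand: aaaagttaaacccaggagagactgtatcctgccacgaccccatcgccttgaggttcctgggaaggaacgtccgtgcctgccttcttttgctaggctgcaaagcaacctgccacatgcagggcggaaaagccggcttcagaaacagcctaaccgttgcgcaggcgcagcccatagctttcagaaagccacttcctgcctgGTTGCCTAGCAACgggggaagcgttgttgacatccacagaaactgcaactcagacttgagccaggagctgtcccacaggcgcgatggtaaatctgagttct
Ccdc153, chr9:44240427-44240726, plus strand: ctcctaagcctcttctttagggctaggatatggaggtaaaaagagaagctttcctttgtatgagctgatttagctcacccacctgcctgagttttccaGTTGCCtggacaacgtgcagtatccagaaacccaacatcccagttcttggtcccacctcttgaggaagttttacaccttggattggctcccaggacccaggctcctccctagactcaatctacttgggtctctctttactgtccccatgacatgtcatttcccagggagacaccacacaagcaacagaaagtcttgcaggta
In Dynlrb2 the 2 words stand directly next to each other, with first bases at -51 and -45. In Ccdc153 GTTGCC begins at -152 and TAGCAAC is not in the window.

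Secretory cell genes were less uniform than those of ciliated cells. Bpifa1, an antimicrobial protein of airway lining fluid, was the gene with the highest difference of all, with 4503, 5081, 4713 and 5429 in adults and 783, 491, 1290.0 and 1094 in juveniles (2.47 ± 0.48, adjusted p = 4.0e-04). Pigr, the receptor that carries IgA across epithelium, had 295, 377, 346 and 356 in adults and 64.4, 41.6, 281 and 134 in juveniles (1.44 ± 0.29). The club cell secretoglobin Scgb1a1 (0.26 ± 0.06) and the club cell cytochrome Cyp2f2 (0.64 ± 0.08) were higher by smaller amounts. Of 24 genes, 9 were higher, 2 were lower and 13 did not pass (median 0.16). The goblet cell gene Clca1 was lower, with 13.7, 12.2, 10.9 and 12.9 in adults and 94.8, 82.2, 1058 and 224 in juveniles (-2.50 ± 0.75). Juvenile replicate 3 was far above the other juveniles, and without it the difference was -1.80 and no longer passed (adjusted p = 0.085). The call was also lost without adult replicates 3 and 4 (-2.49, adjusted p = 0.091).

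Enzymes of xenobiotic metabolism were mostly higher in adults: 26 of 43 passed in that direction, 1 in the other and 16 in neither, with a median of 0.51. Aldehyde oxidase (Aox1) had 307, 295, 253 and 298 in adults and 93.1, 84.3, 114 and 87.8 in juveniles (1.34 ± 0.11), and Cyp4b1, a lung cytochrome P450, had 4168, 4327, 4061 and 4315 in adults and 1708, 2128, 1775 and 2491 in juveniles (1.06 ± 0.10). Paraoxonase 1 (Pon1, 1.42 ± 0.15), the glutathione transferase Gsta3 (1.5 ± 0.16) and the cytochromes Cyp2s1 (1.0 ± 0.11) and Cyp2b10 (1.30 ± 0.21) followed. None of these groups overlapped. Cyp1a1, the classical target of the aryl hydrocarbon receptor, had the lowest difference of any gene (-2.96 ± 0.61, adjusted p = 7.2e-04). It was at 93.8, 134, 59.7 and 38.5 in adults and at 1578, 2516, 353 and 279 in juveniles, so that juveniles 1 and 2 were far above juveniles 3 and 4. Of the 7 aryl hydrocarbon receptor genes tested, it was the one called lower, the aldehyde dehydrogenase Aldh3a1 (1.09 ± 0.28) and the cytochrome Cyp1b1 (0.37 ± 0.09) were higher and 4 did not pass.

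Alveolar epithelium differed by cell type list. Of 23 genes of alveolar type 1 cells, the flat cells of gas exchange, 11 were higher, 2 lower and 10 did not pass (median 0.22). Vegfa, the endothelial growth factor that these cells secrete, had 921, 973, 884 and 920.0 in adults and 534, 532, 599 and 657 in juveniles (0.65 ± 0.08). Sec14l3 (0.58 ± 0.08) and Hopx (0.20 ± 0.05) were higher, while Ager, the most used marker of the type, did not pass (0.19 ± 0.08). Ager was called higher without juvenile replicate 4 (0.29, adjusted p = 0.0064). Sciellin (Scel), a cornified envelope protein also found in these cells, was outside the list and had 855, 774, 730.4 and 877 in adults and 189, 233, 237 and 338 in juveniles (1.60 ± 0.12). Of 23 genes of type 2 cells, the surfactant producers, 5 were higher, 4 lower and 14 did not pass, with a median of -0.01, close to that of all genes. Surfactant protein C (Sftpc) was at 20618, 19078, 18194 and 20412 in adults and 19723, 21138, 20437 and 20320.1 in juveniles, a difference that did not pass (-0.06 ± 0.05). Surfactant protein B (Sftpb, 0.53 ± 0.17) passed, but its groups overlapped, and the call was lost when any one of adult replicates 3 and 4 or juvenile replicates 1 and 2 was left out (adjusted p 0.0507 to 0.135).

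**Figure D3:**
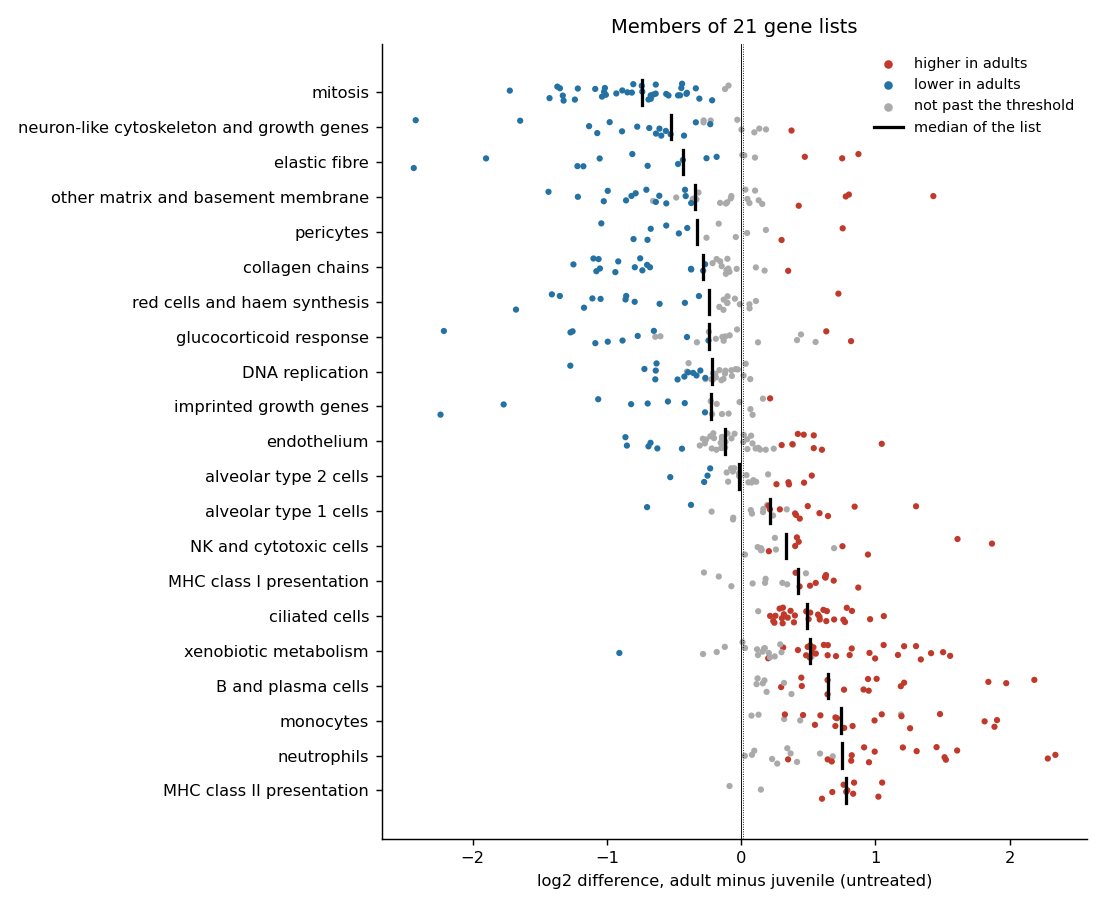
Log2 difference, adult minus juvenile, of each tested member of 21 gene lists (points, jittered up and down), with the list's median as a black bar; the dotted line is the median of all genes. Points of mitosis, elastic fibre and collagen genes lie mostly below 0 and those of ciliated cells, MHC class II, monocytes and B cells mostly above it.

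Vascular and mesenchymal lists held both directions. Of 47 endothelial genes, 8 were higher, 6 lower and 33 did not pass (median -0.12). Von Willebrand factor (Vwf), a marker of larger vessels, had 1351, 1818, 1736 and 2028 in adults and 601, 761, 694 and 1367 in juveniles (1.05 ± 0.18), with juvenile replicate 4 just inside the adult range. Apelin (Apln), a peptide of growing capillaries, had 192, 211, 149.8 and 127 in adults and 327, 407, 289.6 and 306 in juveniles (-0.86 ± 0.12). The capillary sialomucin Emcn (-0.85 ± 0.16) and the Notch target Hey1 (-0.67 ± 0.15) were lower, and the VEGF receptor Flt1 was higher (0.54 ± 0.12), although not when its probe sets were averaged (0.20, adjusted p = 0.32). Of 14 pericyte genes, 7 were lower, 2 higher and 5 did not pass (median -0.33). The pericyte regulator Rgs5 was among the lower ones, with 75.3, 67.6, 42.5 and 64.2 in adults and 197, 139, 156 and 154 in juveniles (-1.04 ± 0.22). Smooth muscle and myofibroblast genes were lower in 4 and higher in 2 of 23 cases. Tagln, an actin-binding protein of smooth muscle, was lower (-0.34 ± 0.11), and the call was lost when any one of adult replicates 1 and 2 or juvenile replicates 1 and 2 was left out (adjusted p 0.0502 to 0.0685). Acta2, smooth muscle actin, did not pass (-0.20 ± 0.10), although its adult arrays lay below its juvenile arrays, and after ventilation its adult arrays lay above the juvenile ones (0.43 ± 0.10). Tgfbi, a TGF-beta-induced matrix protein also made by macrophages, was higher with 691, 581, 1356 and 1389 in adults and 419.6, 425, 401 and 476 in juveniles (1.07 ± 0.21). Its high values were those of adult replicates 3 and 4, without which the difference was 0.53 (adjusted p = 0.075).

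Signalling and housekeeping lists had medians near 0. Genes called in either direction numbered 7 of 41 for WNT, 4 of 20 for FGF, 3 of 18 for Notch, 5 of 11 for hedgehog, 16 of 44 for TGF-beta and BMP and 8 of 24 for PDGF and VEGF signalling, against 25.2% of all genes. Respiratory chain genes were called in 5 of 63 cases, fatty acid oxidation genes in 1 of 34, cholesterol and fatty acid synthesis genes in 4 of 37 and cytosolic ribosomal protein genes in 8 of 41. List medians ranged from -0.07 for hedgehog to 0.09 for FGF signalling across these 10 lists. Of 53 transcription factors of lung development, 15 were higher and 4 lower (median 0.03), with Sox2 foremost.

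Antigen presentation genes were higher in adults. Of the 11 genes of MHC class II presentation tested, 9 were higher, 0 lower and 2 did not pass, with a median of 0.78, and the groups did not overlap at those 9. H2-Eb1, a class II beta chain, had 2026, 2095, 1914 and 1699 in adults and 961, 963, 936 and 872 in juveniles (1.02 ± 0.10). H2-Aa, the alpha chain of another class II molecule, had 4216, 4071, 3619 and 3396 in adults and 2265, 2169, 2203 and 2119.8 in juveniles (0.79 ± 0.09), and H2-Ab1 differed by 1.05 ± 0.12 and the invariant chain Cd74 by 0.68 ± 0.08. The list mean was 9.54, 9.56, 9.54 and 9.45 on the adult arrays and 8.88, 8.88, 8.83 and 8.81 on the juvenile arrays, in log2 units. Ciita, the coactivator that switches these genes on, was near the array medians (31.7 ± 5.96 in adults, 25.3 ± 2.59 in juveniles, mean ± SD, n = 4 each) and did not pass.

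Class II promoters are known for a shared module of an X box, bound by RFX proteins, and a Y box, bound by NF-Y. Of the 8 class II genes with a RefSeq window, 3 held the Y box letters CTGATTGG, which contain the reverse complement of CCAAT, on either strand, against 4.7% of all genes and 4.1% of all windows, and 2 held TAGCAAC, against 4.28% of all genes. The windows of the 2 chain genes with the smallest p are shown, with both words in capitals.
H2-Eb1, chr17:34305617-34305916, plus strand: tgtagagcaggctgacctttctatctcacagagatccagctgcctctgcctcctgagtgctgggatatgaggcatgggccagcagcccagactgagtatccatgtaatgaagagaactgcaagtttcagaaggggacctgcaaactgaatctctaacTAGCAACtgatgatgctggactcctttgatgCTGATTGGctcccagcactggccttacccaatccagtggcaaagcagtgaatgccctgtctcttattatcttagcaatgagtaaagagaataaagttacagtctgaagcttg
H2-Aa, chr17:34287774-34288073, minus strand: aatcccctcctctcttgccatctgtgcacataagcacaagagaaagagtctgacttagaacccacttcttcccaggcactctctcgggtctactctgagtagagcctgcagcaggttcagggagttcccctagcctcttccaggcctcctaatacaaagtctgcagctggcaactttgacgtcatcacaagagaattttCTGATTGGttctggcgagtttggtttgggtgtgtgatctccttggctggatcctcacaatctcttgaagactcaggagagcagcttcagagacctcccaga
H2-Eb1 holds both, with first bases at -93 for TAGCAAC and -62 for CTGATTGG, while H2-Aa holds CTGATTGG at -51 only.

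MHC class I presentation followed with 9 of 18 genes higher, 0 lower and 9 not passed (median 0.42). The heavy chain H2-K1 (0.87 ± 0.15), its light chain B2m (0.51 ± 0.10) and the immunoproteasome subunit Psmb8 (0.63 ± 0.16) were among them. Of 20 dendritic cell genes, 6 were higher and 1 lower. Irf8, a transcription factor that dendritic cells and monocytes need, had 266, 263, 309.9 and 246 in adults and 127, 141, 117 and 112 in juveniles (0.96 ± 0.12).

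Among lymphocyte lists, B and plasma cell and NK genes were often higher in adults, and T cell genes less often. B and plasma cell genes were higher in 15 of 22 cases, with 0 lower and 7 not passed (median 0.64). The B cell receptor component Cd79a had 164, 318, 267 and 239 in adults and 91.5, 95.1, 54.5 and 119 in juveniles (1.19 ± 0.19), and the B cell lectin Cd22 differed by 0.91 ± 0.10. Antibody transcripts differed more. The IgA heavy chain (Igha) was at 359, 497, 124 and 97.9 in adults and at 44.4, 33.5, 41 and 37.6 in juveniles (1.84 ± 0.36), with replicates 1 and 2 well above replicates 3 and 4 among adults. The joining chain of polymeric IgA and IgM (Jchain) was at 169.9, 186, 334 and 146 in adults and 16.2, 8.03, 51.5 and 9.6 in juveniles (2.18 ± 0.44), and the IgM heavy chain (Ighm) differed by 1.98 ± 0.44. The 6 kept probe sets of Ighm ranged from 0.046 to 1.975. The one used was the highest and is of a class that may bind related transcripts. The probe sets named for the variable segments Ighv14-2 (1.70 ± 0.19) and Igkv8-30 (1.62 ± 0.29) were also among the 15 highest, and may bind related antibody transcripts. NK and cytotoxic cell genes were higher in 8 of 16 cases, with 0 lower (median 0.33), including the granzyme Gzma (381, 295, 499.7 and 298 in adults, 110.0, 93.8, 52.7 and 56.1 in juveniles, 1.87 ± 0.49), the chemokine Ccl5 (1.61 ± 0.35) and the receptor Klrd1 (0.76 ± 0.15). T cell genes were higher in 4 of 18 cases (22.2%, against 15.1% of all genes), with 0 lower (median 0.17). The T cell receptor component Cd3e differed by 0.25 ± 0.06. Without adult replicates 3 and 4 Ighm (1.52, adjusted p = 0.059), Gzma (1.77, adjusted p = 0.058) and Psmb8 (0.60, adjusted p = 0.056) no longer passed, and 12 of 22 B and plasma cell genes were higher.

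Monocyte and neutrophil transcripts were higher in adults, but 2 adult arrays carried much of the difference. Of 22 monocyte genes, 17 were higher and 5 did not pass (median 0.74). Without adult replicates 3 and 4 the count was 10 of 22. The chemokine receptor Ccr2, which brings monocytes out of the marrow, had 493, 248, 732 and 714 in adults and 109.8, 90.4, 180.3 and 83.1 in juveniles (1.91 ± 0.35), and 1.42 without these replicates (adjusted p = 0.024). The factor XIII subunit F13a1 had 419.7, 256, 842 and 863 in adults and 136, 120.0, 157 and 105 in juveniles (1.81 ± 0.29). Csf1r, the receptor for macrophage colony-stimulating factor, was more even, with 2174, 1662, 2104 and 1901 in adults and 1017, 1044, 1171 and 1104 in juveniles (0.83 ± 0.13, and 0.79 without these replicates). Ifitm6 (1.89 ± 0.40) did not pass without them (1.01, adjusted p = 0.093). In every one of these genes both adult replicates 1 and 2 were nonetheless above all juveniles.

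Neutrophil genes were higher in 16 of 26 cases, with 0 lower and 10 not passed (median 0.75). The count was 2 of 26 without adult replicates 3 and 4, 10 without replicate 3 alone and 8 without replicate 4 alone, and 6 of 26 when only the untreated arrays entered the fit. The granulocyte receptor Csf3r had 183, 129, 725 and 855 in adults and 90.7, 101, 104 and 124 in juveniles (1.52 ± 0.34), and 0.45 without these replicates (adjusted p = 0.19). S100a8, one of the calprotectin subunits that fill neutrophil cytosol, had 1987, 1353, 8908 and 11365 in adults and 339, 452, 1080.0 and 2127 in juveniles (2.34 ± 0.52), with overlap, and 1.04 without them (adjusted p = 0.17). Its partner S100a9 differed by 2.29 ± 0.54, by 0.90 without them (adjusted p = 0.24), and lost its call in the fit of untreated arrays alone (adjusted p = 0.0504). Outside this list, the cytokine Il1b (203, 180.0, 609.9 and 629 in adults, 47, 42.2, 41.6 and 65.2 in juveniles, 2.24 ± 0.32) and Wfdc17 (294, 213, 1427 and 1764 in adults, 81.4, 92.3, 165 and 80.4 in juveniles, 2.35 ± 0.41) showed the same adult arrays apart, and passed without them at 1.47 (adjusted p = 0.0021) and 1.09 (adjusted p = 0.013). Lactoferrin (Ltf), found in neutrophil granules and in airway gland secretions, did not split the adults, with 328, 366, 359.8 and 384 in adults and 115, 60.6, 113 and 104 in juveniles (1.61 ± 0.25, and 1.56 without these replicates). Red cell transcripts on adult replicates 3 and 4 had list means of 7.28 and 7.30, against 7.17 and 7.06 on adult replicates 1 and 2, in log2 units, and the part of blood left in the vessels in these levels was not tested.

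Macrophage genes were higher in 12 of 34 cases, with 0 lower (median 0.19), including galectin 3 (Lgals3, 0.89 ± 0.08) and the complement subunit C1qa (0.69 ± 0.12). Pattern recognition genes were higher in 17 of 36 cases with 0 lower (median 0.23), among them the fungal receptor Clec7a (0.84 ± 0.14) and the noncanonical inflammasome caspase Casp4 (1.0 ± 0.16). Complement genes were higher in 13 of 23 cases and lower in 1 (median 0.35), with factor B (Cfb) at 149, 119, 137 and 142 in adults and 56.4, 59.1, 49.8 and 44.4 in juveniles (1.0 ± 0.16). Interferon-stimulated genes were higher in 12 of 44 cases and lower in 2. Their 2 smallest p pointed in opposite directions: Ifi27l2a was higher (1164, 1118, 1622 and 1192 in adults, 344, 334, 609 and 327 in juveniles, 1.61 ± 0.18), and the antiviral enzyme Rsad2 was lower (454, 353, 671 and 569 in adults, 1143, 1657, 1928 and 1651 in juveniles, -1.59 ± 0.22).

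**Figure D4:**
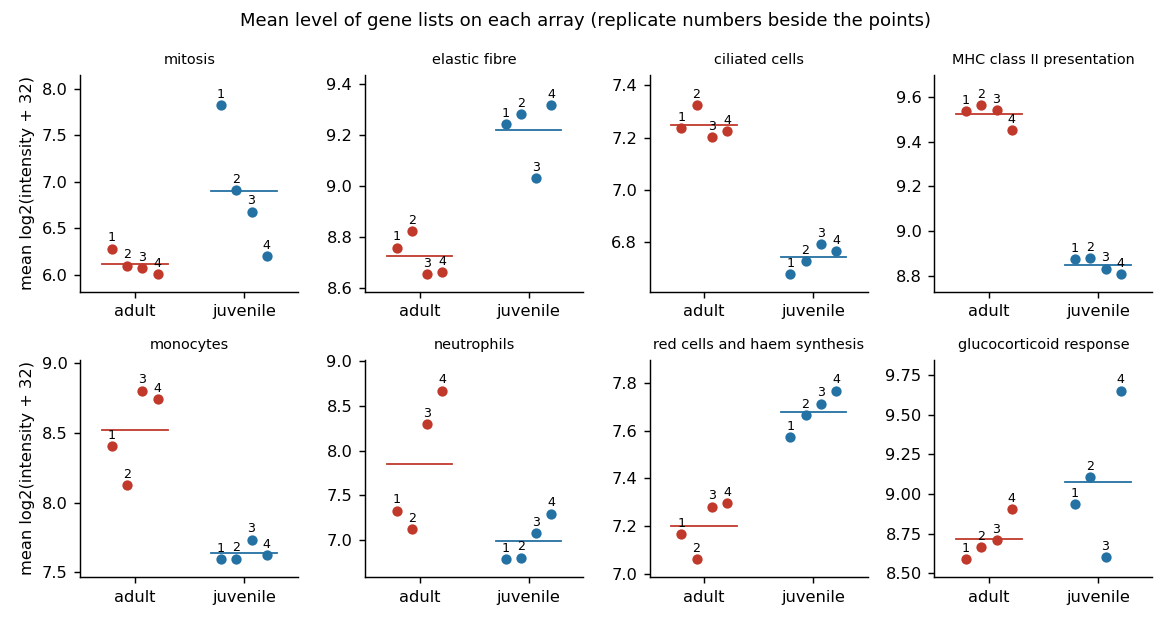
Mean level of the tested genes of 8 lists on each array, in log2 of intensity plus 32, with adults left, juveniles right and replicate numbers beside the points; lines are group means. Ciliated-cell and MHC class II genes separate the ages with little spread, whereas neutrophil genes are raised on adult replicates 3 and 4, mitosis genes spread from 6.20 to 7.82 over the juveniles, and glucocorticoid-response genes are highest on juvenile replicate 4.

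Red cell genes were lower in adults. Of 24 genes of erythroid cells and haem synthesis, 12 were lower, 1 was higher and 11 did not pass (median -0.24), and the groups of the 12 lower ones did not overlap. Alas2, the first enzyme of haem synthesis in erythroid cells, had 1189.7, 941, 1161 and 1198 in adults and 2162, 2864, 3048 and 3736 in juveniles (-1.35 ± 0.20). Bpgm, which makes the red cell's 2,3-bisphosphoglycerate, differed by -1.41 ± 0.19, the anion exchanger Slc4a1 of the red cell membrane by -1.68 ± 0.35, and ferrochelatase (Fech) by -1.05 ± 0.20. The probe set named for the adult beta globin gene Hbb-b2 differed by -0.79 ± 0.20, and did not pass when its probe sets were averaged (-0.28, adjusted p = 0.0504). Such probe sets may bind the transcripts of neighbouring globin genes.

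Glucocorticoid-responsive genes were lower in 10 of 26 cases and higher in 2 (median -0.24). Zbtb16, a transcription factor strongly induced by glucocorticoids, had 164, 75.1, 112 and 63.4 in adults and 535, 421, 443 and 1065 in juveniles (-2.21 ± 0.28). Tsc22d3, also called GILZ, had 587, 781, 739 and 778 in adults and 1668, 2190.0, 1049.5 and 2573 in juveniles (-1.27 ± 0.22). The clock gene Per1 (-1.26 ± 0.30) and the receptor cochaperone Fkbp5 (-1.09 ± 0.24) were lower too, Fkbp5 with overlap. The mineralocorticoid receptor Nr3c2 was higher (0.63 ± 0.09). Juvenile replicate 4 had the highest list mean (9.65) and juvenile replicate 3 one of 8.60, within the adult range of 8.59 to 8.90. Without juvenile replicates 1 and 4, 6 of 26 genes were lower and Fkbp5 no longer passed (-0.61, adjusted p = 0.072). The hour and manner of killing are not in the labels. Immediate early genes, which respond within minutes to handling, were higher in 7 of 26 cases with 0 lower, including Egr1 (1001, 629, 419 and 356 in adults, 144, 119, 133 and 156 in juveniles, 1.79 ± 0.42), Fos (1.71 ± 0.41) and Junb (1.26 ± 0.26).

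Other genes with very small p lay outside these lists. Ahnak2, a giant scaffold protein, had 193, 177, 145 and 153 in adults and 40.9, 41.4, 34.5 and 53.2 in juveniles (1.42 ± 0.10). Cckar, the receptor for cholecystokinin (0.98 ± 0.08), Hs3st1, which sulphates heparan chains (1.19 ± 0.10), the mannosidase Man1a (0.68 ± 0.06) and the Polycomb subunit Cbx7 (0.98 ± 0.09) were higher with no overlap. Man1a varied little within each age, with 471, 445, 430.0 and 450.2 in adults and 273, 272, 261 and 270.2 in juveniles. Its log2 SDs of 0.051 in adults and 0.027 in juveniles were below the medians of all genes, 0.094 and 0.118.

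Whether these differences were also present in other mice of the same ages was examined in the treated groups, which share no array with the untreated ones but share the estimate of the spread. After LPS 1158 genes were higher (8.85%) and 983 lower (7.51%) in adults, after ventilation 1088 were higher (8.31%) and 1961 lower (15%), and after both 955 were higher (7.3%) and 647 lower (4.94%). The balance after ventilation rested on the scaling, since 1679 genes were higher and 1475 lower there after quantile normalisation of the arrays. Of the 1982 genes that were higher in untreated adults, 82.9% had the same sign after LPS, 75.5% after ventilation and 81% after both, and 35.3%, 31% and 26.7% were called higher there. Of the 1319 lower genes, 84.3%, 89.8% and 77.8% had the same sign and 32.8%, 51.9% and 27.2% were called lower. The share of all genes with each sign was not counted, so the same-sign shares have no background beside them. The balance of higher and lower genes after ventilation, which rested on the scaling, also enters the shares there. Calls in the opposite direction numbered at most 49 of 1982 and 15 of 1319. Across genes, which are not independent replicates, the untreated difference correlated with that after LPS (Pearson r = 0.603), after ventilation (0.573) and after both (0.547), over 13089 genes. Arrays with high Xist were 0 of 4 adults and 1 of 4 juveniles without treatment, 0 of 4 and 0 of 4 after LPS, 4 of 4 and 1 of 3 after ventilation, and 3 of 4 and 2 of 3 after both. The share of arrays with high Xist thus differed most between the ages after ventilation, where 2011 genes differed, in place of 3049, with a term for high Xist in the fit.

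In all 4 pairs of groups 274 genes were higher and 253 lower in adults. Eln differed by -2.97 ± 0.18 after LPS, -3.25 ± 0.19 after ventilation and -3.11 ± 0.19 after both, beside -2.44 ± 0.18 without treatment. Corresponding values were -1.62 ± 0.14, -2.83 ± 0.15 and -2.21 ± 0.15 for Peg3, -1.30 ± 0.12, -1.58 ± 0.13 and -1.59 ± 0.13 for Col3a1, and -1.32 ± 0.20, -1.50 ± 0.22 and -1.77 ± 0.22 for Alas2. Among higher genes they were 2.27 ± 0.48, 3.82 ± 0.52 and 1.84 ± 0.52 for Bpifa1, 1.72 ± 0.44, 2.17 ± 0.48 and 2.90 ± 0.48 for Jchain, and 1.0 ± 0.13, 1.66 ± 0.14 and 1.10 ± 0.14 for Ccdc153. All of these passed in every pair. Elastic fibre genes were lower in 9, 12 and 11 of 17 cases after LPS, ventilation and both, collagen chains in 15, 18 and 16 of 29, and red cell genes in 10, 14 and 11 of 24. Ciliated-cell genes were higher in 17, 28 and 24 of 30 cases and class II genes in 9, 8 and 7 of 11.

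Other groups gave other counts in the treated animals. Mitosis genes were lower in 1, 9 and 2 of 39 cases (median -0.03 after LPS, -0.29 after ventilation and -0.20 after both), against 37 of 39 without treatment. All of these counts come from the fit of all arrays. The untreated count was 9 of 39 when only the untreated arrays entered the fit. Monocyte genes were higher in 7, 2 and 2 of 22 cases, B and plasma cell genes in 6, 4 and 3 of 22, and neutrophil genes in 18, 3 and 3 of 26. The neutrophil median was 1.05 after LPS, 0.18 after ventilation and 0.27 after both, against 0.75 without treatment. Glucocorticoid-responsive genes were lower in 1, 3 and 2 of 26 cases and had a median of 0.22 after LPS. Zbtb16, at -2.21 ± 0.28 without treatment, did not pass after LPS (-0.39 ± 0.28), ventilation (-0.39 ± 0.30) or both (-0.15 ± 0.30). Cyp1a1 did not pass in any treated pair (-1.27 ± 0.61, -0.05 ± 0.66 and -1.44 ± 0.66). Alveolar type 1 genes were higher in 4, 2 and 1 and lower in 4, 9 and 6 of 23 cases. Without treatment 11 were higher and 2 lower. The type 1 median was 0.001 after LPS, -0.22 after ventilation and -0.16 after both, against 0.22 without treatment. Interferon-stimulated genes were higher in 2, 5 and 1 and lower in 17, 1 and 7 of 44 cases, against 12 higher and 2 lower without treatment. The interferon median was -0.47, 0.04 and -0.11, against 0.23 without treatment. Transcription factors of lung development were higher in 5, 3 and 2 and lower in 17, 19 and 12 of 53 cases, against 15 and 4. For these lists the difference between the untreated and treated age contrasts was not tested.

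**Figure D5:**
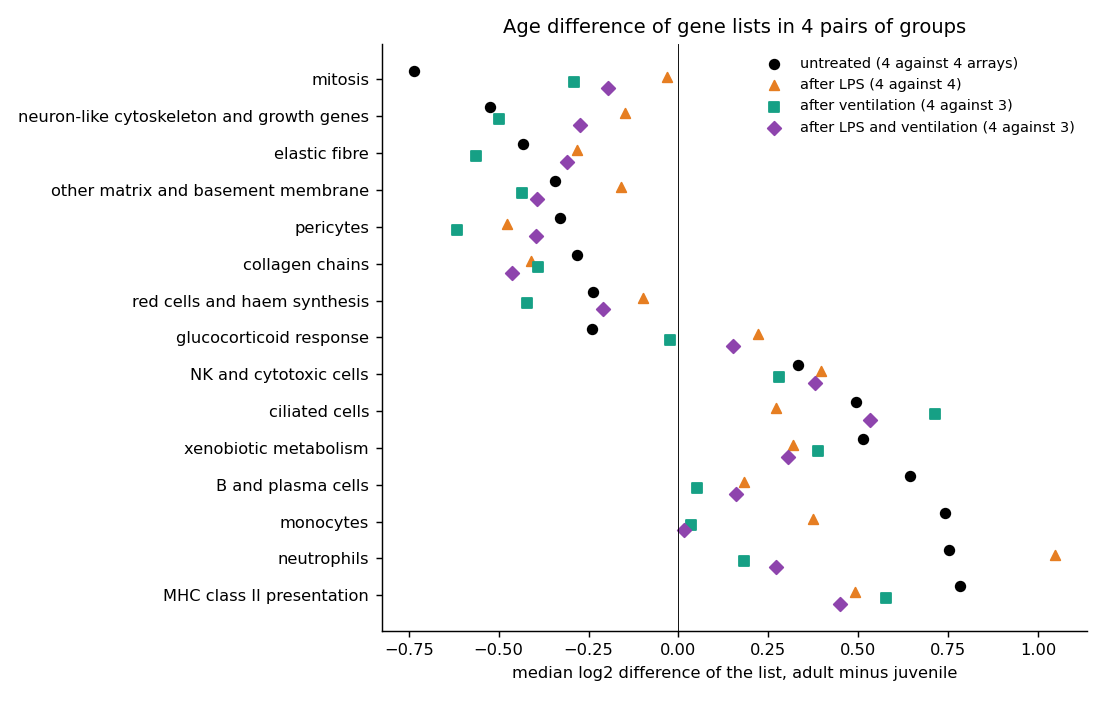
Median log2 difference, adult minus juvenile, of 15 gene lists in untreated animals and in 3 treated pairs of groups. Matrix, pericyte and red cell lists lie below 0 and ciliated-cell, NK, xenobiotic and MHC class II lists above 0 in each pair, while mitosis, monocyte and glucocorticoid-response lists lie nearer 0 or on its other side in treated animals.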

How the data were processed

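Total RNA of whole lung was hybridised to Affymetrix 430 2.0 arrays, 1 per sample, by 3' in vitro transcription labelling per the labels' protocols. The deposited table holds 1 value per probe set and array, on a linear intensity scale from 4.5 to 25073 over 30 arrays. The submitters' processing notes name MAS5, and other steps are not given in the sources used here. The values lack the long low tail usual of MAS5, so the summary method is not settled. Array medians of 21.56 to 22.49 and upper quartiles of 105.7 to 111.4 in the 8 untreated arrays show that the deposited values were already scaled. The number of arrays limits precision.

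Of 45037 probe sets, 34945 carried 1 gene symbol, 932 several and 9160 none in the platform annotation, and 34741 gene identifiers were found in RefSeq. Probe sets were kept (24825) where 3 or more arrays gave a value above that array's median. Each gene was measured by its brightest kept probe set, which left 13089 of 18193 named genes. Among those, 1401 were measured by a probe set of a class that may bind related transcripts. Of the 160 genes named in the text, 73 had several kept probe sets and 0 had another with an opposite difference over 0.25 log2 units.

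Values were tested as log2(intensity + 32) with limma (lmFit and eBayes with an intensity trend) in R. One mean was fitted per group over all 30 arrays and 8 groups, with p-values two-sided and adjusted over all genes tested (threshold 0.05). The labels do not say whether the arrays of a group come from separate animals or litters, so p-values measure only the spread between these samples, which may in part be technical. The procedure was tested on simulated data with 200 changed genes in the adult against juvenile comparison of 13089 genes. It recovered 98% of 100 genes changed by 1 log2 unit and 75% of 100 changed by 0.5, with 6 false calls among 179. The simulated noise was normal and independent between genes, with the same spread in every group. In the real arrays some lists shifted together on single arrays and had unequal spreads. Mitosis genes, for example, had a median SD of 0.123 in adults and 0.663 in juveniles. The simulated rates need not hold for such lists.

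Samples were grouped by their titles and characteristics. The 62 gene lists hold 1824 entries, 1384 distinct genes of which were tested. Their members were chosen with earlier results of these data known, so their direction is no independent support, and lists are described by counts and medians beside those of all genes. Genes named are the 15 highest and 15 lowest differences and the 10 smallest p in each direction, among called genes whose groups did not overlap, up to 8 members per list by p, and other list members with their value. Promoter windows are RefSeq's (GRCm38.p6). Alternatives covered normalisation, pseudocount, filter, probe set rule, trend, weights, arrays in the fit, a replicate block, a term for Xist, and left-out arrays. Leaving out adult replicates 3 and 4 or juvenile replicates 1 and 4, and the block within untreated arrays, were chosen after the data were seen.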

Additional observations from a re-analysis of the deposited data

Results flagged for a closer look

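Some values were set apart because a single array of 4 lay far from its group, judged by the gap to its nearest neighbour as a share of the group's range. Such gaps were found in 12 of 320 gene groups and 3 of 124 list groups, and chance alone gives them in about 5% of groups. Among genes that were lower in adults, Mfap2 was high on adult replicate 4 (457.8, gap 0.905), Sparc on adult replicate 1 (6928, gap 0.932) and Grb10 on adult replicate 1 (378, gap 0.844). Meg3 was low on adult replicate 1 (121.3, gap 0.873), Alas2 on adult replicate 2 (941.1, gap 0.868) and Col4a5 on juvenile replicate 3 (1130.0, gap 0.914).

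Among genes that were higher in adults, Ifi27l2a was high on juvenile replicate 3 (608.9, gap 0.92), and Ltf was low on juvenile replicate 2 (60.6, gap 0.837). Cd22 was high on replicate 2 of both ages (202 in adults, gap 0.832, and 104.9 in juveniles, gap 0.958). Juvenile replicate 3 had high Xist (588.7, gap 0.984) and low Eif2s3y (9.69, gap 0.959). The T cell list mean was low on adult replicate 1 (6.54, gap 0.843). The skeletal muscle list mean was high on adult replicate 1 (7.22, gap 0.964) and on juvenile replicate 3 (6.55, gap 0.927), and its part in other results was not tested.

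For 2 genes every array moved one way with age in untreated animals and the other way after ventilation. Igf2r differed by -0.261 after ventilation and by 0.216 without treatment, and Acta2 by 0.428 after ventilation and by -0.196 without treatment. The difference between these contrasts was not tested.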

How the results depend on the processing

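The count of 3301 genes was 3465 after quantile normalisation, 3266 with a pseudocount of 1, 3163 with no filter, 3280 with probe sets averaged, 3297 with no trend, 4475 with array weights, 3267 with a term for high Xist and 2433 from the untreated arrays alone. It ranged from 2483 to 3900 when 1 array was left out, and was 2702 without juvenile replicates 1 and 4 and 1676 (1143 higher, 533 lower) without adult replicates 3 and 4. With the replicate number as a block it was 3463, or 2626 within the untreated arrays. Deviations of same-numbered adult and juvenile arrays correlated at 0.257, 0.136, -0.047 and 0.225, and adult replicates 1, 2 and 4, but not 3, correlated best with the juvenile of their own number. That is a hint from the data and not from the design, and the numbers were not used as pairs. The block changed no call of a named gene in the fit of all arrays. Within the untreated arrays, the block gave 29 lower mitosis genes and 16 higher neutrophil genes. In that fit Ccnb2, Ccna2, Tpx2, Sftpb and S100a9 were called, while Igf2r (adjusted p = 0.12), Hopx (0.0522) and Cd3e (0.0547) were not. Genes with at least 2-fold differences numbered 362 with a pseudocount of 1, which compresses dim genes less, and 107 without adult replicates 3 and 4, against 175.

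Counts in lists changed in few cases. Lower mitosis genes numbered 9 from the untreated arrays alone, 10 without adult replicates 3 and 4, and 25 to 37 with 1 array left out. Higher neutrophil genes numbered 6 and 2 in the same 2 settings and 8 to 17 with 1 array left out, and higher monocyte genes 10 without adult replicates 3 and 4. Lower glucocorticoid-response genes numbered 6 without juvenile replicates 1 and 4. Array weights gave 4619 genes after ventilation and 3891 after both treatments, a term for high Xist gave 2011 after ventilation, and leaving out 1 array gave 1010 to 1574 after both treatments. The cause was not tested. Over all settings, named genes kept direction and side of the threshold in 3143 cases, lost the call in 51, gained it in 6 and reversed in 0. With 4 arrays a group, the median SE over all genes was 0.09, which limits what small differences can be called.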

Other observations

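Lists not described above are given as counts, against 25.2% of all genes called. Circadian clock genes were called in 1 of 17 cases, heat shock genes in 3 of 21 (median -0.18) and retinoid pathway genes in 7 of 19 (median 0.16). Antioxidant enzymes were higher in 9 and lower in 4 of 28 cases, and ion and water transport genes higher in 5 and lower in 2 of 20. Cytokines and chemokines were higher in 12 and lower in 4 of 47 cases (median 0.07), and fibroblast and lipofibroblast genes higher in 5 and lower in 7 of 24 (median -0.10). Mast cell, basophil and eosinophil genes were higher in 2 of 7 cases and basal and neuroendocrine genes lower in 1 of 4.

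Markers of neighbouring tissues were measured to show what the dissected samples held. Heart muscle genes were higher in 1 of 24 cases (median 0.25), and 0 of 12 skeletal muscle, 0 of 7 fat and 0 of 6 thymus genes were called. At 8 of the 24 heart genes the adult arrays lay wholly above the juvenile ones, against 14.1% of all genes, and at 1 wholly below. Heart list means were 8.23, 8.24, 8.17 and 8.14 on adult arrays and 8.16, 7.86, 7.92 and 7.81 on juvenile arrays, in log2 units. Of 6 thyroid and oesophagus genes 1 was lower. Skeletal muscle transcripts had list means of 7.22, 6.01, 6.05 and 6.03 on adult arrays and 6.01, 5.98, 6.55 and 5.97 on juvenile arrays, in log2 units, and fat transcripts 7.58, 7.70, 7.65 and 7.62 on adult arrays and 8.01, 6.93, 8.25 and 7.04 on juvenile arrays. Fat transcripts thus varied among juveniles by more than 1 log2 unit.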
